A study of Mus musculus with 2 samples.

Results

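The genes described here are 10 of the 32285 genes in the deposited count tables. They are Pdcd1 (PD-1), Lag3, Havcr2 (TIM-3), Tigit, Ctla4, Cd160, Cd244a (2B4), Entpd1 (CD39), Tnfrsf9 (4-1BB) and the transcription factor gene Tox. They were taken by symbol, and all 10 were found in both tables. Single-cell RNA was counted in CD45+ cells sorted from tumours of 4T1, a mouse mammary carcinoma line. The line carried a short hairpin RNA against Pml in 1 group (shPml) and a control hairpin in the other (shCTRL). Tumour cells were injected into mammary fat (an ectopic injection, in the labels' wording) in BALB/c hosts that were 6 to 8 weeks old, and tumours were taken 14 days later. Each group has 1 library, for which the sources used here give neither the number nor the sex of the mice. The hairpins are in the tumour cells, so the Pml counts of the sorted CD45+ cells do not check the knockdown.

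T cells that meet antigen switch on inhibitory receptors, which bind ligands on tumour, myeloid or other cells and dampen signalling from the T cell receptor. Brief activation induces many of them for a time. Under lasting stimulation, as in tumours, CD8 T cells hold several at once and express Tox, a nuclear protein needed for the state called exhaustion. Regulatory T cells, defined by the transcription factor Foxp3, carry Ctla4 constitutively and use it to remove costimulatory ligands from antigen-presenting cells. Entpd1 and Cd244a are not particular to T cells. The first encodes an enzyme that breaks down extracellular ATP and is found on many leukocytes, and the second is a receptor of natural killer (NK) cells and myeloid cells as well.

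Upstream sequences of 8 of the 10 genes were in the RefSeq promoter table for GRCm38.p6, the build also called mm10. Those of Pdcd1, Ctla4 and Tnfrsf9 are shown because they are the genes of the set with the most unique molecular identifiers (UMIs, counted RNA molecules) in CD8 T cells of both libraries summed, and because the results below turn on them. Each is the 250 bases before an annotated transcript start, 5′ to 3′ on the gene's own strand, from chr1:94052554-94052803 (minus strand), chr1:60908775-60909024 (plus strand) and chr4:150919905-150920154 (plus strand). Capitals mark GGAAA, the core letters bound by NFAT, on either strand.
Pdcd1: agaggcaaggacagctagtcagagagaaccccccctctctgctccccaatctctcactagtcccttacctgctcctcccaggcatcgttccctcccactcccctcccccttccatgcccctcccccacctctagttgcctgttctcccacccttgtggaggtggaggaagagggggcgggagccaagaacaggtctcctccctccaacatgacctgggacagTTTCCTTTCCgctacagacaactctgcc
Ctla4: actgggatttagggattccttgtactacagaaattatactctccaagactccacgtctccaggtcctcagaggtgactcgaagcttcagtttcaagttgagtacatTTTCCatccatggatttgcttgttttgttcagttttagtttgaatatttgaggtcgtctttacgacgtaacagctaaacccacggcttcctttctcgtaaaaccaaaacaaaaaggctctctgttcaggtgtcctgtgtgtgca
Tnfrsf9: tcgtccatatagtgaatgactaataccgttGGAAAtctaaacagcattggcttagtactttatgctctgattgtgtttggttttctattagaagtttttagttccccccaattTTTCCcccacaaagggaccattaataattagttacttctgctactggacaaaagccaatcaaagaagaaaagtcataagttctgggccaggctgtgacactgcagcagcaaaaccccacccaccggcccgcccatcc
Pdcd1 held 2 matches, which lay 28 to 24 and 23 to 19 bases before the start. Ctla4 held 1 match, at 144 to 140 bases. The Tnfrsf9 start shown held 2, at 220 to 216 and 137 to 133 bases. The 5 letters are common, and 55.6% of 32851 RefSeq promoters of the same length held them, against 8 of the 11 sequences of these genes. The AP-1 letters TGANTCA were in 3 of the 11 (Havcr2, Cd244a and a second start of Tnfrsf9) and in 6.75% of all promoters. The NR4A letters AAAGGTCA were in none of the 11 and in 1.34% of all promoters. Motifs were searched on both strands, and a match describes the letters only.

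After filters on genes per barcode, mitochondrial share and doublets, the shPml library held 1751 cells (median 1300 UMIs) and the shCTRL library 852 (median 4040 UMIs). More than 10% mitochondrial UMIs had removed 22.7% of the shPml barcodes and 61.9% of the shCTRL barcodes. Cells were sorted into gates by a few defining genes. CD8 T cells (at least 1 UMI of Cd3d, Cd3e or Cd3g, at least 1 of Cd8a or Cd8b1, none of Cd4) numbered 709 and 239 in shPml and shCTRL. Regulatory T cells (Foxp3 without Cd8a or Cd8b1) numbered 20 and 36, and other CD4 T cells 35 and 214. Neutrophils (S100a8 and S100a9 at 1% or more of UMIs) numbered 167 and 18 and served as the background. The CD8, regulatory and neutrophil gates held their other markers. Ikzf2, which most regulatory T cells express, was at 1472 and 964 counts per 1000000 UMIs of the gate (CPM) in the regulatory gate against 113 and 72.7 in the CD8 gate. The neutrophil genes Csf3r and Retnlg had 1155 and 2799.9 CPM in shPml neutrophils and at most 7.74 CPM in the CD8 gates. The markers of other CD4 T cells set that gate apart less clearly. In shPml, Cd40lg, Lef1 and Tcf7 were higher there than in the CD8 and regulatory gates. Ccr7 was lower there (385 against 530 and 502 CPM), and Il7r (192 CPM) was below the regulatory gate (292 CPM). There is 1 library per group, so no test between groups is possible. Intervals are exact and 95%, and they cover counting error only.

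Some measured features of the libraries move with the results below. Of the barcodes, 266 occurred in both libraries. They made up 168 of the 709 shPml CD8 T cells and 106 of the 239 shCTRL CD8 T cells, and the gene ratios between libraries are given with and without them where the text compares the libraries by gate. Median depth in the CD8 gate was 1399 UMIs in shPml and 4022 in shCTRL. Xist, the RNA of the inactive X chromosome, stood at 85.2 CPM in shPml CD8 T cells and 678 CPM in shCTRL. Summed Y-linked genes (Ddx3y, Eif2s3y, Kdm5d, Uty) stood at 166 and 14.1 CPM. All 12 shCTRL CD8 T cells with a Y-linked UMI had a barcode that was also in the shPml library. No Y-linked UMI was found in regulatory T cells, other CD4 T cells, B cells, macrophages or neutrophils of either library. T cells with no UMI of Cd4, Cd8a, Cd8b1 or Foxp3 had 58 in shPml and 5 in shCTRL. Barcodes in no gate had 41 and 4. UMIs of T cell receptor beta variable genes (Trbv) were few in the CD8 gates. Trbv13-1 held 14 of 19 in shPml and 5 of 25 in shCTRL. Under unshared barcodes it held 10 of 13 and 2 of 17. The part of these features in the results was not tested.

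Pdcd1, Lag3, Tigit, Ctla4, Cd160 and Tox had 0 UMIs in the 167 shPml neutrophils and in the 18 shCTRL neutrophils. In the shPml neutrophils, 3 counts of the total would be a share of 1.80% of cells. These genes were also at 0 in the 36 shPml cells of the monocyte or macrophage gate. In shPml CD8 T cells the intervals of Pdcd1, Lag3, Ctla4, Cd160 and Tox lay above those of the shPml neutrophils. Tigit, at 6.02 CPM (2.42 to 12.4) in 0.987% of shPml CD8 T cells, could not be told apart from neutrophils, whose interval reached 6.01 CPM. Entpd1, Cd244a and Havcr2 were found in myeloid cells.

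**Figure D1:**
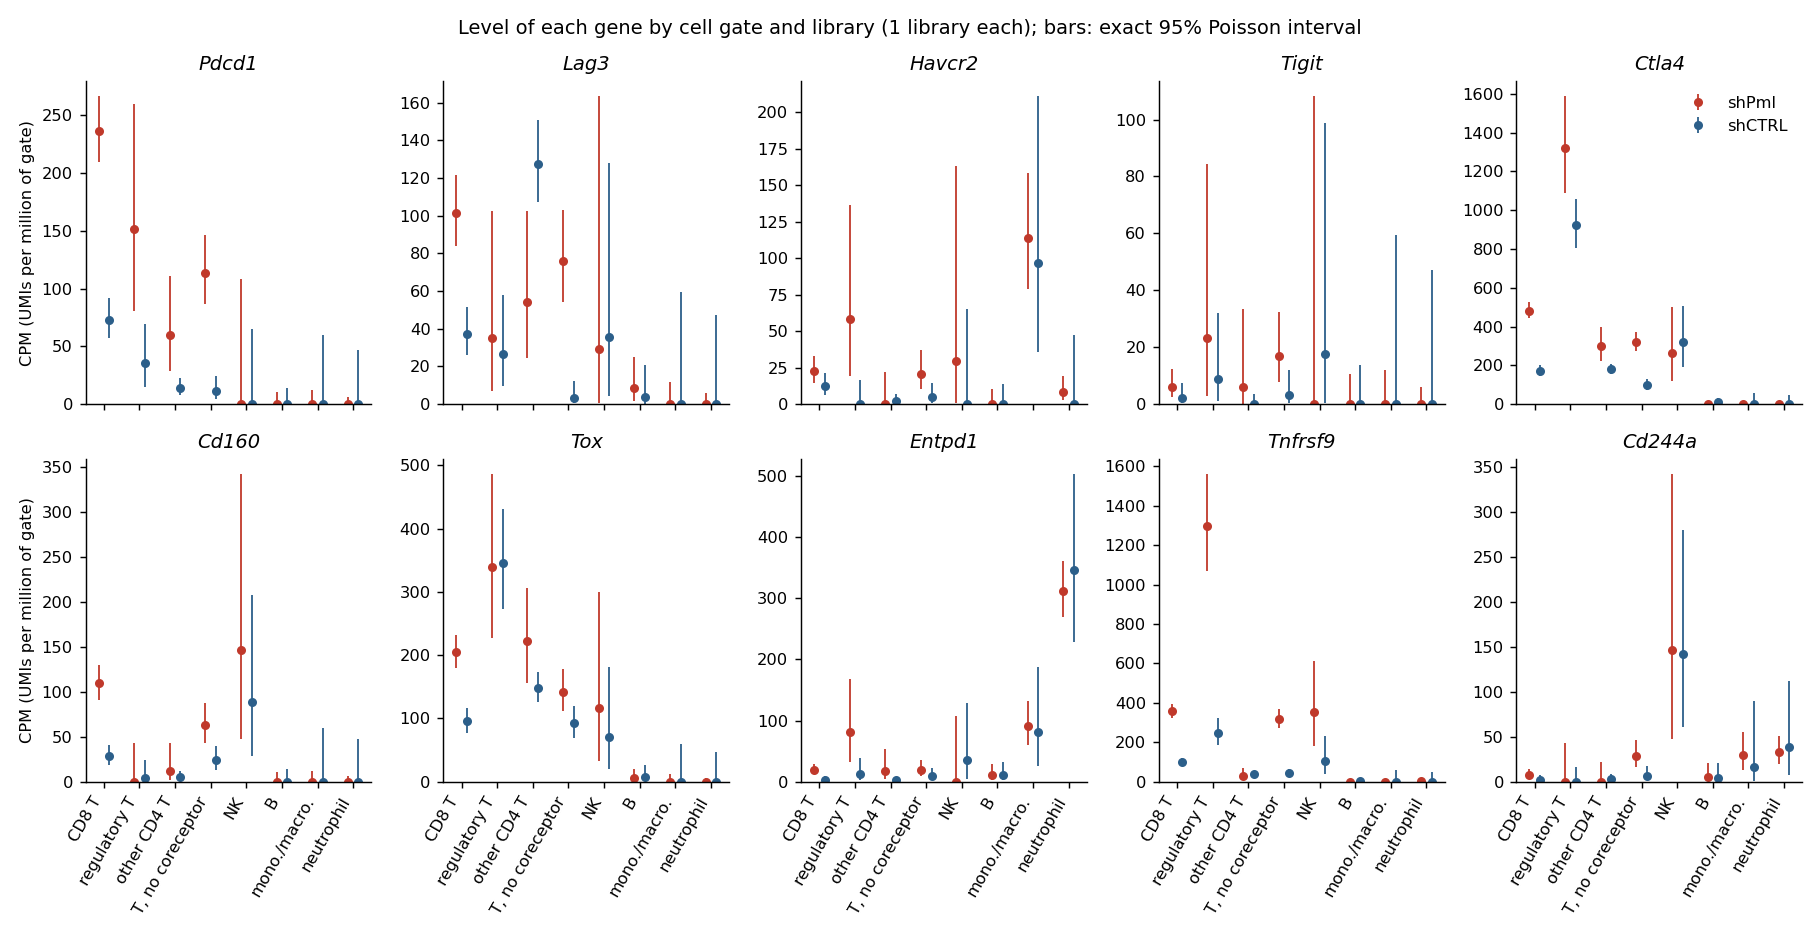
Level of each of the 10 genes (CPM, y axis, linear, own scale per gene) in 8 cell gates (x axis) for the shPml (red) and shCTRL (blue) library; points are CPM of the gate and bars are exact 95% Poisson intervals. Ctla4 and Tox are highest in regulatory T cells, Entpd1 in neutrophils (313 and 346 CPM), and Havcr2 in monocytes or macrophages (114 and 96.8 CPM).

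Ctla4 encodes the receptor that competes with CD28 for CD80 and CD86 (chr1:60887000-60915832, plus strand). In the shPml library its level was 1320.0 CPM (1088 to 1587) in the regulatory gate, 483 (444 to 524) in CD8 T cells, 322 (275 to 374) in T cells with no coreceptor UMI and 301 (223 to 396) in other CD4 T cells. In shCTRL it stood at 924 (803 to 1059), 172 (147 to 199.5), 99.2 (75.5 to 128) and 179.7 (155 to 207) in the same order. Regulatory T cells were thus the highest gate in both libraries, with 85% and 83.3% of cells holding a UMI. The shCTRL CD8 value leaned on 1 cell with 44 of the 170 Ctla4 UMIs. That cell also had 5 Foxp3 UMIs, 1 Cd8b1 UMI and a shared barcode, so its gate is uncertain.

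Pdcd1 encodes PD-1, which recruits the phosphatase SHP-2 when bound by PD-L1 or PD-L2 (chr1:94038305-94052553, minus strand). With all barcodes its highest level was in the CD8 gate in both libraries, at 237 CPM (209 to 266) in shPml and 72.7 (56.9 to 91.6) in shCTRL. In regulatory T cells it was at 152 (80.9 to 260) and 35.4 (15.3 to 69.7), with intervals of the ratio to CD8 that hold 0. Other CD4 T cells were lower than CD8 T cells in both libraries, at 60.1 (28.8 to 111) and 14.0 (7.82 to 23.0). The fraction of CD8 T cells with a Pdcd1 UMI was 25.1% and 13.4%. A single shCTRL cell held 24 of the 72 UMIs. Without shared barcodes the shCTRL order was another one, with 2.79 CPM in CD8 T cells (2 UMIs), 28 in regulatory T cells (3 UMIs) and 6.44 in other CD4 T cells (6 UMIs).

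Lag3 encodes a receptor for MHC class II and other ligands and lies 16139 bases from Cd4 on the same strand (chr6:124904361-124911705, minus strand), without overlap. In CD8 T cells it stood at 102 CPM (84.0 to 122) in shPml and 37.4 (26.3 to 51.5) in shCTRL. In other CD4 T cells the order of the libraries was the opposite, at 54.1 (24.7 to 103) and 128 (107 to 151). The shCTRL value came from 10 of 214 cells. Regulatory T cells had only 3 and 6 UMIs.

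Cd160 encodes a receptor for HVEM on cytotoxic lymphocytes. With all barcodes it was highest in CD8 T cells and NK cells among the gates examined. The CD8 gate held 109 CPM (91.1 to 130) in shPml and 28.3 (18.8 to 40.9) in shCTRL, and the 18 NK cells of both libraries 147 (47.6 to 342) and 88.8 (28.8 to 207). The NK values rest on 5 UMIs in 1 of 8 shPml cells and 5 UMIs in 4 of 10 shCTRL cells. Regulatory T cells had 0 UMIs in shPml and 1 in shCTRL. Cd160 shares its locus with Pdzk1 on the other strand (chr3:96798763-96829351), and whether counting used strand is not stated in the labels.

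Havcr2 encodes TIM-3, a receptor of terminally differentiated T cells and of myeloid cells (chr11:46454935-46481255, plus strand). In CD8 T cells it was at 22.4 CPM (14.6 to 32.8) in shPml and 12.1 (6.26 to 21.2) in shCTRL, in 19 of 709 and 8 of 239 cells. The monocyte or macrophage gate stood at 114 (79.1 to 158) and 96.8 (35.5 to 211), the latter from 6 cells. After each cell was thinned at random to 500 UMIs, 1.27% of shPml CD8 T cells and 1.2% of shPml neutrophils had a UMI, the latter with an interval of 0.145 to 4.26. The neutrophils had 5 UMIs, 4 of them in 1 cell (8.14 CPM, 2.64 to 19.0), and B cells of both libraries had 0. Without thinning the shares were 2.68% and 1.2%, at median depths of 1399 and 3360.0 UMIs.

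Tigit, which encodes a receptor for PVR and nectins, had few UMIs in every gate. Its most were 9 UMIs in 9 of 376 shPml T cells with no coreceptor UMI. That level (17.0 CPM, 7.79 to 32.3) lay above the interval of shPml neutrophils, which reached 6.01 CPM. Tigit had 7 UMIs in 7 of 709 shPml CD8 T cells, 2 UMIs in 239 shCTRL CD8 T cells, and 2 UMIs each in the 20 and 36 regulatory T cells. Cd244a encodes a receptor for CD48. It had 8 and 2 UMIs in CD8 T cells (6.88 and 2.02 CPM), below neutrophils (32.6 and 38.4 CPM) and NK cells (147 and 142 CPM). Cd244a overlaps Ly9 on the opposite strand.

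Tox (chr4:6686353-6991557, minus strand) was found in every T cell gate of both libraries. It encodes the nuclear factor described above. Regulatory T cells held 339 CPM (227 to 487) in shPml and 345 (273 to 431) in shCTRL, and other CD4 T cells 222 (157 to 307) and 148 (126 to 173). CD8 T cells held 205 (179.6 to 233) and 95.9 (77.6 to 117). In shPml the CD8 and other CD4 levels did not differ beyond their intervals (log2 ratio −0.12, −0.62 to 0.42), while without shared barcodes the CD8 level was the lower one (−0.74, −1.27 to −0.17). In shCTRL the CD8 level was the lower one with all barcodes (−0.63, −1.01 to −0.25) and without the shared ones (−0.76, −1.23 to −0.31). Tox UMIs were found in 41.1% of shCTRL other CD4 T cells, where the naive genes Ccr7 and Tcf7 stood at 603 and 424 CPM. That share is without thinning, at a median depth of 4701.5 UMIs. After the thinning described for Havcr2 it was 7.94% (4.70 to 12.4). The thinned shares were 10.7% (8.54 to 13.2) in shPml CD8 T cells and 6.28% (3.55 to 10.1) in shCTRL CD8 T cells, so the intervals overlap. Without thinning these were 24.7% and 27.2%.

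Tnfrsf9 encodes 4-1BB, a costimulatory receptor induced by activation that is also used as a mark of tumour-reactive T cells (chr4:150914562-150946102, plus strand). It lies within the span of Camta1 on the other strand. Regulatory T cells held 1297 CPM (1067 to 1562) in shPml and 248 (187 to 322) in shCTRL. CD8 T cells held 359 (325 to 395) and 98.0 (79.4 to 119), and other CD4 T cells 30.1 (9.76 to 70.1) and 40.0 (29.0 to 53.9). A single regulatory T cell had 42 of the 111 shPml UMIs. In T cells without a coreceptor UMI, 1 shPml cell had 61 of 167.

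Entpd1 (chr19:40612366-40741602, plus strand) was highest in neutrophils, at 313 CPM (270.1 to 360.2) in shPml and 346 (228 to 503) in shCTRL, in 52.7% and 55.6% of cells. Monocytes or macrophages followed at 90.9 (60.4 to 131) and 80.7 (26.2 to 188). CD8 T cells stood at 19.8 (12.5 to 29.7) and 3.03 (0.625 to 8.85). After thinning to 500 UMIs per cell, 1.27% of shPml CD8 T cells had an Entpd1 UMI against 17.4% of the neutrophils. Without thinning the shares were 2.82% and 52.7%. Summed S100a8 and S100a9 stood at 176 CPM in shPml CD8 T cells, from which barcodes at 1% or more were left out, and at 133641 in shPml neutrophils. Free RNA from neutrophils was not measured directly, and its part in the low CD8 Entpd1 value was not tested.

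In CD8 T cells, the receptors of this set were higher in the library from shPml tumours. Among the 8 genes with at least 20 summed UMIs, 7 were at least 2-fold higher in shPml and none was 2-fold lower. Of all 7341 genes with that many UMIs, 11.9% were at least 2-fold higher and 10.1% at least 2-fold lower. The log2 ratio was 1.70 (1.32 to 2.10) for Pdcd1, 1.87 (1.55 to 2.21) for Tnfrsf9, 1.49 (1.24 to 1.75) for Ctla4 and 1.95 (1.35 to 2.60) for Cd160. Lag3 had 1.44 (0.90 to 2.02), Tox 1.09 (0.75 to 1.45) and Entpd1 2.71 (0.98 to 5.09), the last from 23 against 3 UMIs. The interval of Havcr2 held 0 (0.88, −0.15 to 2.01). The median over the 8 genes was 1.60, and 0.13 over all genes. With each cell given the same weight the median was 0.55 and Havcr2 was lower in shPml (−0.42).

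Without the barcodes found in both libraries, 541 shPml and 133 shCTRL CD8 T cells remained, and the distance between the libraries was larger. All 6 of the genes with at least 20 UMIs there were at least 2-fold higher in shPml, against 17.4% of 6220 genes. The median was 3.94. Pdcd1 had 132 UMIs in shPml and 2 in shCTRL (log2 ratio 6.04, 4.15 to 9.10), and Tnfrsf9 186 and 4 (5.53, 4.15 to 7.42). Lag3 had 66 and 3 (4.45, 2.84 to 6.76), Ctla4 350 and 35 (3.31, 2.81 to 3.86), and Cd160 87 and 8. Tox was the exception in size, with 134 and 59 UMIs and a ratio of 1.17 (0.72 to 1.64), close to its value with all barcodes.

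**Figure D2:**
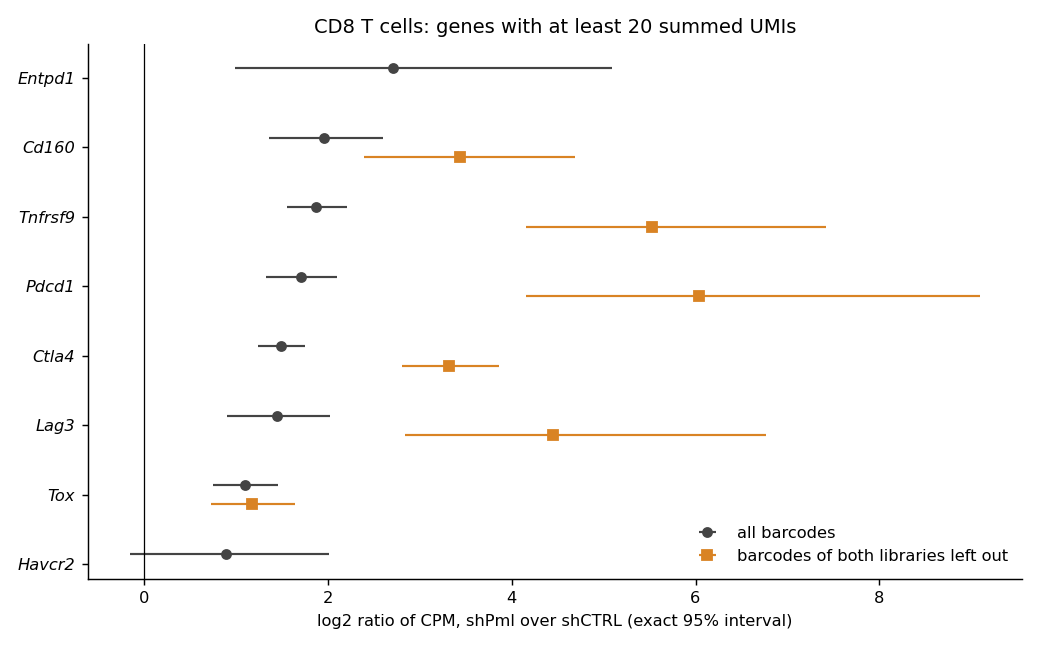
Log2 ratio of CPM between the shPml and shCTRL libraries in CD8 T cells (x axis, exact 95% interval) for the genes with at least 20 summed UMIs (y axis), with all barcodes (dark circles) and without those in both libraries (orange squares). The ratio of Tox stays at 1.09 and 1.17, while that of Pdcd1 goes from 1.70 to 6.04.

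Most UMIs of these genes in shCTRL CD8 T cells lay under shared barcodes. The 106 shared cells held 405 of the 518 UMIs of the 10 genes (1486 CPM), and the 133 unshared cells 113 (157 CPM). In the shPml library the shared and unshared CD8 T cells were closer, at 1852 and 1364 CPM. Within shCTRL, Pdcd1 stood at 257 CPM under shared and 2.79 under unshared barcodes, and Tnfrsf9 at 341 and 5.57. Tox stood at 132 and 82.2 (log2 ratio 0.68, 0.04 to 1.31).

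The shared barcodes of the shCTRL CD8 gate fell into 2 kinds by depth. Of the 106, 91 had more UMIs in the shPml library, where 84 of them were also CD8 T cells, and the median shCTRL total was 0.383 of the shPml total. In these 91 there were 132 combinations of a barcode and a gene with a UMI in shCTRL, and 102 of them (77.3%) had one in shPml too. Over all 910 combinations of these barcodes and the 10 genes, 28.9% had a UMI in shPml. The other 15 barcodes had a median of 14.9 times more UMIs in shCTRL and held 228 UMIs of the set. All 16 of their combinations with a UMI in shPml had one in shCTRL. Where each shared barcode was kept only in the library with more of its UMIs, 702 and 148 CD8 T cells remained and the median log2 ratio was 2.06.

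Within the CD8 gate, the genes differed in how they followed effector and naive genes. Cells were thinned to 500 UMIs and split into those with a Gzmb UMI (granzyme B) and none of Ccr7, Lef1 or Tcf7, and those with a UMI of these naive genes. In shPml there were 178 and 170 such cells. Havcr2 (log2 ratio 3.76, 1.08 to 9.15, from 16 against 1 UMIs) and Entpd1 (3.57, 0.85 to 8.97, from 14 against 1) had the highest ratios to the Gzmb cells, with wide intervals that overlap those of the next genes. Ctla4 had 1.16 (0.81 to 1.51), from 773 against 347 CPM, and Pdcd1 1.13 (0.61 to 1.67), from 343 against 157 CPM. Lag3 had 0.79 (0.04 to 1.58) and Tnfrsf9 0.46 (0.09 to 0.83). The intervals of Tox (0.39, −0.18 to 0.97) and Cd160 (0.13, −0.58 to 0.85) held 0.

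**Figure D3:**
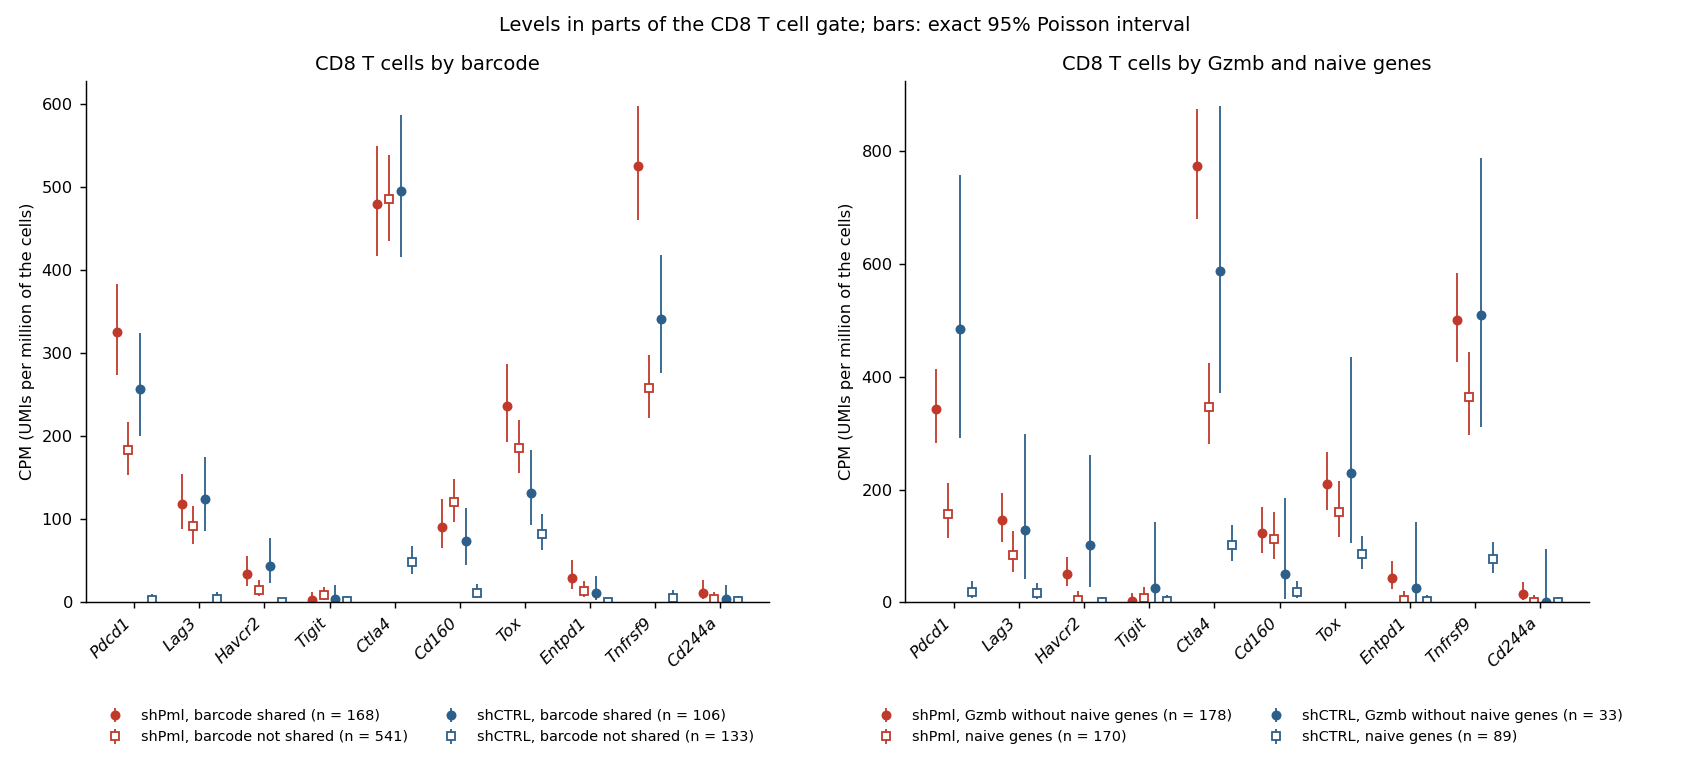
Level of each gene (CPM, y axis) in parts of the CD8 T cell gate for shPml (red) and shCTRL (blue), with exact 95% Poisson intervals: left, cells whose barcode is in both libraries (filled) or not (open); right, cells with Gzmb and no naive gene (filled) or with a naive gene (open), after thinning. The unshared shCTRL cells lie near 0 for Pdcd1 (2.79 CPM) and Tnfrsf9 (5.57 CPM).

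In shCTRL only 33 CD8 T cells had Gzmb without naive genes, and 32 of them had a shared barcode. Pdcd1 stood at 485 CPM in them and at 19.0 in the 89 cells with naive genes (log2 ratio 4.67, 3.42 to 6.07). Ctla4 stood at 587 and 102, Tnfrsf9 at 510.2 and 76.0, and Tox at 229.6 and 85.5. Between the libraries, the median log2 ratio in these Gzmb cells was −0.03 over the 7 genes with at least 20 UMIs, and the intervals of Pdcd1 (−0.50, −1.21 to 0.29), Ctla4 (0.40, −0.22 to 1.08) and Tnfrsf9 (−0.03, −0.70 to 0.72) held 0. The interval of the Tox ratio ran from −1.14 to 1.06. This comparison was chosen after the values were seen, and its shCTRL side rests on shared barcodes.

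Cycling cells were those with at least 2 UMIs of 12 proliferation genes after thinning, 149 of the 709 shPml CD8 T cells. In shPml, for none of the 10 genes did the interval of the ratio to the other cells lie above 0. Tnfrsf9 was lower, at 259 CPM against 389.6 in the other cells (log2 ratio −0.59, −0.98 to −0.22). Tox (0.06, −0.39 to 0.50) and Pdcd1 (−0.08, −0.52 to 0.33) lay near 0. In shCTRL the cycling cells were higher in Pdcd1 (2.50, 1.13 to 3.63), Tnfrsf9 (2.43, 1.25 to 3.42), Tox (1.83, 0.34 to 3.01) and Ctla4 (1.38, 0.14 to 2.39). All 19 cycling CD8 T cells of shCTRL had shared barcodes.

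Cells with Y-linked UMIs and cells with Xist UMIs also differed within the shPml CD8 gate. The 158 cells with a Y-linked UMI exceeded the 22 cells with Xist in Tnfrsf9 (451 against 109 CPM, log2 ratio 2.04, 1.19 to 3.03) and in Cd160 (111 against 36.5, 1.61, 0.11 to 3.57). The same held for Tox (271 against 128, 1.08, 0.25 to 2.02) and Pdcd1 (288 against 137, 1.07, 0.27 to 1.97). Ctla4 did not differ beyond its interval (476 against 438, 0.12, −0.37 to 0.62). In shCTRL the 12 cells with a Y-linked UMI exceeded the 130 with Xist in Ctla4 (1.58, 0.24 to 2.67). All 12 had shared barcodes, against 15 of the 130, so this split cannot be told apart from that by shared barcode. The 2 kinds of shPml cell also differed in other ways. Gzmb stood at 999.7 CPM in those with a Y-linked UMI and 109 in those with Xist, Lef1 at 27.8 and 201, Tcf7 at 128 and 328, and the median depth at 1638.5 and 4116 UMIs. The part of these differences was not tested. Neither kind of UMI was found in 529 of the 709 cells, so these cells are a part of the gate.

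In regulatory T cells, Tnfrsf9 was higher in shPml, and so was Pdcd1 on few UMIs, while the interval of Tox held 0. Of the 4 genes with at least 20 summed UMIs, 2 were at least 2-fold higher in shPml, against 7.71% of 2438 genes. Tnfrsf9 had a log2 ratio of 2.39 (1.91 to 2.88), and 2.70 (2.05 to 3.42) without shared barcodes. Pdcd1 had 2.10 (0.72 to 3.58) from 13 and 8 UMIs, of which 1 cell held 6 in shPml and 1 cell held 4 in shCTRL. Without shared barcodes it had 2.55 (0.68 to 5.0) from 13 and 3 UMIs. Ctla4 had 0.51 (0.17 to 0.85) with all barcodes, and 0.21 (−0.18 to 0.59) without the shared ones. Tox had −0.03 (−0.69 to 0.61), and −0.20 (−0.96 to 0.53) without shared barcodes. The 20 and 36 cells limit each of these values. Without the shPml cell with 42 Tnfrsf9 UMIs the gene stood at 872 CPM in shPml.

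Set against other CD4 T cells of the same library, regulatory T cells held more Ctla4 and Tnfrsf9 in both libraries. In shPml, 3 of the 4 genes with at least 20 UMIs were at least 2-fold higher, against 13% of all genes tested, and none was 2-fold lower, against 8.68%. Their log2 ratios were 5.43 (4.17 to 7.08) for Tnfrsf9, 2.13 (1.64 to 2.65) for Ctla4 and 1.34 (0.03 to 2.69) for Pdcd1. In shCTRL, 4 of 5 were higher, against 12.3%, and 1 was lower, against 8.94%. Tnfrsf9 had 2.63 (2.03 to 3.24), Ctla4 2.36 (2.07 to 2.65) and Tox 1.22 (0.81 to 1.62). Pdcd1 was the fourth, with an interval that holds 0 (1.34, −0.10 to 2.67). The lower gene was Lag3 (−2.26, −3.74 to −1.11), and its ratio was 0.06 (−1.51 to 1.37) without 5 cells described next.

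Those 5 shCTRL other CD4 T cells had between 12 and 38 Lag3 UMIs each and held 111 of the gate's 137. The choice of these cells followed from their Lag3 values, and all 5 have shared barcodes. They had Ctla4 at 1126 CPM against 129 in the other 209 cells of the gate, Maf at 1017 against 38.3 and Icos at 436 against 154. Maf encodes a transcription factor of IL-10-producing and follicular helper T cells, and Icos a costimulatory receptor of those cells. Il10 had 7 UMIs in 1 of the 5 cells and 0 in the other 209, and Il21 had 3 UMIs in 3 of the 5 and 0 in the others. Foxp3 was at 0 by the gate. Pdcd1 had 4 UMIs in them, Havcr2 and Tigit none.

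Between libraries, other CD4 T cells thus differed in opposite directions for Lag3 and Pdcd1. Of 5 genes with at least 20 UMIs, Pdcd1 was at least 2-fold higher in shPml (log2 ratio 2.11, 0.79 to 3.36; 10.8% of all genes) and Lag3 at least 2-fold lower (−1.24, −2.40 to −0.27; 9.37%). Without shared barcodes the Lag3 ratio was 0.96 (−2.31 to 3.29), from 2 and 8 UMIs, and the Pdcd1 ratio 3.55 (1.89 to 5.32), from 9 and 6. Ctla4 had 0.74 (0.26 to 1.2) with all barcodes and 1.57 (0.96 to 2.16) without the shared ones, where it and Tox (1.15, 0.58 to 1.69) were the 2 of 3 genes at least 2-fold higher, against 8.57%. In T cells without a coreceptor UMI, 5 of 6 genes were at least 2-fold higher in shPml, against 13.6%, with a median log2 ratio of 2.30. Pdcd1 stood there at 114 and 11.8 CPM and Tnfrsf9 at 316 and 42.0 CPM. Without shared barcodes 343 and 123 of these cells remained. There 5 of 6 genes were at least 2-fold higher, against 17.2%, with Tnfrsf9 at 226 and 8.13 CPM and Pdcd1 at 52 and 0 UMIs, while the interval of Tox held 0 (0.56, −0.00072 to 1.12).

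CD8 T cells and regulatory T cells of the same library differed in which receptors they held. In shPml, 2 of 8 genes were at least 2-fold higher in CD8 T cells, against 14.3% of all genes, and 4 at least 2-fold lower, against 17.9%. In shCTRL, 2 of 6 were higher, against 8.03%, and 3 lower, against 12.9%. Ctla4 was lower in CD8 T cells in both libraries (log2 ratio −1.45, −1.75 to −1.15, and −2.43, −2.73 to −2.13). So were Tnfrsf9 (−1.85, −2.16 to −1.54, and −1.34, −1.83 to −0.84) and Tox (−0.73, −1.29 to −0.12, and −1.85, −2.29 to −1.40). With all barcodes Cd160 lay the other way. It was at least 3.12-fold higher in shPml CD8 T cells against a floor of 3 counts in the regulatory gate, where it had 0 UMIs. In shCTRL the Cd160 ratio was 2.68 (0.08 to 8.03), from 28 and 1 UMIs. Without shared barcodes Cd160 stood at 11.1 CPM (8 UMIs) in shCTRL CD8 T cells and 9.33 (1 UMI) in shCTRL regulatory T cells. In these cells Ctla4 stood at 48.8 against 1166 CPM and Tnfrsf9 at 5.57 against 215. With all barcodes the intervals of Pdcd1 and Lag3 held 0 in both libraries. In shPml Entpd1 was lower in CD8 T cells (−2.05, −3.31 to −0.58, from 23 and 7 UMIs), and the interval of Havcr2 held 0 (−1.38, −2.79 to 0.35).

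Against other CD4 T cells, CD8 T cells held more Pdcd1, Cd160 and Tnfrsf9 in both libraries with all barcodes. These were the 3 of 8 genes at least 2-fold higher in shPml, against 13.2% of all genes, and none was 2-fold lower. In shCTRL they were the 3 of 6 that were higher, against 3.82%, and Lag3 was lower, against 4.78%. The log2 ratio of Pdcd1 was 1.98 (1.08 to 3.05) in shPml and 2.38 (1.56 to 3.29) in shCTRL. Cd160 had 3.18 (1.30 to 6.25, from 127 and 2 UMIs) and 2.34 (1.04 to 3.90), and Tnfrsf9 3.58 (2.34 to 5.21) and 1.29 (0.76 to 1.84). Ctla4 was higher in shPml CD8 T cells (0.68, 0.26 to 1.13), and in shCTRL its interval held 0 (−0.07, −0.37 to 0.24). In shPml the intervals of Lag3 (0.91, −0.07 to 2.07) and Entpd1 (0.13, −1.59 to 2.51) held 0, and Havcr2 had 26 and 0 UMIs. Without shared barcodes, 4 of 6 genes were at least 2-fold higher in shPml CD8 T cells, against 17.7%, and Pdcd1 had 1.28 (0.31 to 2.44), Cd160 2.85 (0.95 to 5.92) and Tnfrsf9 3.36 (1.79 to 5.65). In shCTRL without them, none of 3 genes was at least 2-fold higher and 1 was at least 2-fold lower, against 5.34%. The intervals of all 3 lay below 0, that of Ctla4 among them (−0.97, −1.58 to −0.39, from 35 and 89 UMIs). Pdcd1 stood there at 2.79 CPM in CD8 and 6.44 in other CD4 T cells, with a ratio whose interval holds 0 (−1.21, −4.55 to 1.28). Tnfrsf9 was then lower in CD8 T cells, at 5.57 against 23.6 CPM (−2.08, −4.08 to −0.52), and Cd160 stood at 11.1 and 5.36 CPM (1.06, −0.74 to 3.01).

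How many of the 10 genes a cell held was counted after thinning every cell to 500 UMIs. In the CD8 gate, 15.7% of 709 shPml cells had UMIs of 2 or more (Clopper-Pearson 13.1 to 18.5) and 10.9% of 239 shCTRL cells (7.23 to 15.5), so the intervals overlap. Without thinning the shares were 43.4% and 25.9%. At least 3 genes were found in 4.8% and 2.09% of the thinned cells, and the most was 4 and 3. None of the 133 unshared shCTRL cells had 2 or more genes, with a Clopper-Pearson interval up to 2.74% (3 counts would be 2.26%), against 13.9% (11.1 to 17.1) of the 541 unshared shPml cells. In the regulatory gate 8 of 20 shPml cells (40%, 19.1 to 63.9) and 2 of 36 shCTRL cells (5.56%, 0.680 to 18.7) had 2 or more. The neutrophil background was 1.2% of 167 cells. Without Entpd1 and Cd244a it was 0, and the shPml CD8 share was 15.0%.

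**Figure D4:**
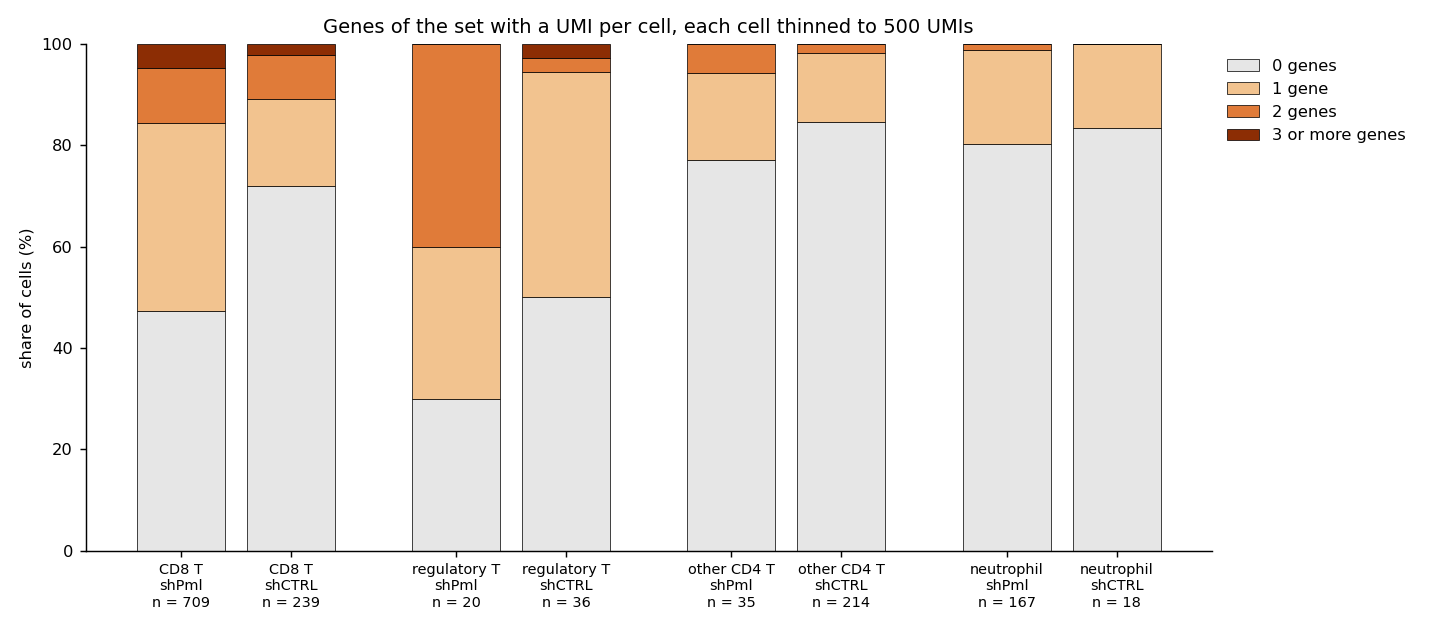
Share of cells (y axis, percent) with UMIs of 0, 1, 2 or at least 3 of the 10 genes after each cell was thinned to 500 UMIs, for 4 gates and both libraries (x axis, with the number of cells). In the CD8 gate 15.7% of shPml and 10.9% of shCTRL cells have 2 or more.

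Pairs of genes in the same thinned shPml CD8 T cell were compared with the product of their shares. In 14 pairs that product came to at least 3 cells, and 11 were found together more often than it, with a median ratio of 1.48 (0.798 to 1.81). Pdcd1 and Ctla4 were together in 26 cells against a product of 17.3, and Pdcd1 and Tnfrsf9 in 16 against 10.6. Lag3 was found with Ctla4 in 14 cells against 8.43 and with Tox in 7 against 3.86. The pairs below the product were Ctla4 with Tnfrsf9 (20 against 23.9), Ctla4 with Cd160 (9 against 10.3) and Pdcd1 with Lag3 (3 against 3.76). Without thinning, where deep cells hold more of every gene, 24 of 25 pairs were above the product, and Pdcd1 and Lag3 were together in 36 cells against 23.6. No pair of the thinned shCTRL CD8 T cells reached a product of 3 cells.

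Other genes around these receptors were taken from lists, and the counts are those at least 2-fold apart between the libraries in CD8 T cells, where 11.9% of all genes were higher in shPml and 10.1% lower. The list of further inhibitory receptors also held the ligand gene Cd200. Of its 11 genes with at least 20 UMIs, 3 were higher in shPml and 2 lower, with a median log2 ratio of −0.17. The higher ones included Cd200 (105 against 26.3 CPM, 2.0, 1.38 to 2.67), a ligand that dampens myeloid cells, and Klrc1 (191 against 58.6 CPM, 1.71, 1.28 to 2.15), which encodes the NKG2A receptor. Btla was lower (13.8 against 34.3 CPM, −1.32, −2.27 to −0.42). Of 9 costimulatory receptors 2 were higher and none lower, namely Tnfrsf4 (OX40; 1.80, 1.33 to 2.29) and Tnfrsf1b (TNFR2; 1.35, 0.94 to 1.79). Cd28 lay near 0 (−0.25, −0.47 to −0.03). Effector genes were higher in 8 of 10, with a median of 1.48. Among them were the chemokine gene Ccl5 (2.55, 2.45 to 2.65), Gzmb (2.49, 2.25 to 2.74) and Gzma (2.62, 2.23 to 3.04).

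Of 19 transcription factor genes in the CD8 comparison, 4 were at least 2-fold higher in shPml and 5 lower, against the same 11.9% and 10.1% of all genes, with a median of 0.30. Nr4a2 (409 against 127 CPM, 1.68, 1.40 to 1.98) and Bhlhe40 (457 against 150.5 CPM, 1.60, 1.34 to 1.87) were higher. Lef1 (−2.46, −2.85 to −2.08), a factor of naive T cells, was lower, and so was Nr4a1 (−1.52, −1.84 to −1.21), an early gene of T cell receptor signalling. Nr4a1 and Nr4a2, which bind the same DNA letters, thus stood in opposite directions. Of 12 phosphatases and adaptors 2 were higher and none lower, with Sh2d2a, an adaptor of activated T cells, at 1.84 (1.65 to 2.04). Of 7 ligand genes 1 was higher, Lgals3 (galectin-3; 3.27, 2.66 to 3.96). It had 225 CPM in shPml CD8 T cells and 23.2 in shCTRL. Without shared barcodes Gzmb had 591 and 2.79 CPM, Lgals3 233 and 1.39, and Cd28 335 and 380.4.

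Genes whose level most resembled each member's were found over 10 points (the 5 gates that had at least 20 cells in each library, taken in both libraries) by Pearson's r of log2(CPM + 10) among 6370 genes. The points share 2 libraries that differ in depth, so the values are descriptions. Neutrophils and macrophages are not among the points. Tox was most like Ctla4 (r = 0.98), a member of the same set. Ctla4 was most like Vgll4 (0.99), Cd160 like the killer lectin genes Klrk1 (0.98) and Klrc1 (0.97) and like Gzma (0.96), and Pdcd1 like Mxi1 (0.95) and Ldha (0.94). Tnfrsf9 was most like Osbpl3 (0.98) and Lag3 like Suclg1 (0.86). Havcr2 was most like H2-Q6 (0.93) and Entpd1 like Gmfb (0.97), from 59 and 65 UMIs in all. Tigit and Cd244a had too few UMIs in these gates.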

How the data were processed

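RNA of CD45+ cells was counted in 1 library per group. The deposited tables hold whole-number UMI counts per gene and barcode, which the authors produced with Cell Ranger (version 4.0.0), per the file headers. The mm10 build, R 4.3.3 and Seurat 4.4.0 are named in the submitters' processing notes, without a role for each. The smallest total per barcode is 500 UMIs in both tables. Here, barcodes below 200 genes or above 10% mitochondrial UMIs were removed, and doublets called by Scrublet (scanpy 1.11.5, 20 components) were left out (3 and 4). Scrublet marked 0.171% and 0.467% of barcodes, which says little about the doublets that remain. Gates were set on raw UMIs, and barcodes in both a T cell gate and the neutrophil gate were left out. UMIs were summed per gate and expressed per 1000000 UMIs of the gate (CPM). Levels have exact Poisson intervals, ratios exact conditional intervals, and shares Clopper-Pearson intervals (scipy 1.17.1, numpy 2.4.6, pandas 2.3.3, python 3.11.15). All are 95% intervals that cover counting error only. A gene with 0 UMIs on 1 side was set to a floor of 3 counts there. Counts of higher and lower genes use genes with at least 20 summed UMIs, and ratios from fewer are given with their UMIs. With no replicate libraries, no test between groups was made. The split of CD8 T cells by naive genes used Ccr7, Lef1 and Tcf7, and 1 further gene planned for it is not reported here. The ratio code was tested on simulated data.

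Levels are given for all 10 genes, and the comparisons name those with at least 20 summed UMIs. Of other lists, 2 to 4 genes with at least 20 UMIs and the interval farthest from 0 are named, and Cd28 was added after its values were seen. The genes, lists and rules were chosen with earlier results of these data known. Alternatives covered shared barcodes, the mitochondrial limit, doublets, depth, gates, UMI minimum, single cells and weighting, and 6 more were added after seeing the data.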

Additional observations from a re-analysis of the deposited data

How the results depend on the processing

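No paired analysis was possible because there is only 1 library in each group. Of 119 recomputed summary values, 95 stayed within the counting error of the value reported, 21 moved beyond it and 3 were counted as reversed. Of 401 recomputed values of single genes, 319 stayed, 71 moved and 11 were counted as reversed. A reversal was counted only beyond the counting error of a reported value whose own interval excluded equal levels. Other values that changed sign, some medians below among them, were counted as moved or as staying. The counts of reversed values are therefore not the number of sign changes. Each median covers the genes that pass the UMI minimum in its setting, so its genes can differ between settings. Other causes of these changes were not tested.

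The median log2 ratio of shPml over shCTRL in CD8 T cells, 1.60, was 3.94 without shared barcodes, 2.06 with each kept where deeper, 2.08 with gates of 2 UMIs and 0.55 with each cell weighted equally. In CD8 T cells with Gzmb and no naive gene it was −0.026, with Pdcd1 at −0.50, Tnfrsf9 at −0.026 and Tox at −0.13. That alternative was chosen after seeing the data. Of its 33 shCTRL cells, 32 had barcodes also found in the shPml library, so it cannot tell how unshared cells compare.

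In other CD4 T cells the median of 0.59 was 1.15 without shared barcodes and 1.22 with cells weighted equally. With gates of 2 UMIs (18 and 115 cells) it was −0.19, which is the value of Ctla4. Lag3 changed sign to 0.96 without shared barcodes and to 1.22 with cells weighted equally, and Tox to −2.50 under a mitochondrial limit of 5%. In regulatory T cells the median of 1.31 over 4 genes was 2.10 with a minimum of 10 UMIs. Without shared barcodes it was 0.21 over 3 genes, because Pdcd1 (2.55, from 13 and 3 UMIs) fell below the minimum of 20 UMIs.

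Regulatory over other CD4 T cells in shCTRL had a median of 1.34, and 3.18 without shared barcodes. Its Lag3 ratio changed sign to 0.12 without shared barcodes and to 0.057 without the 5 cells of at least 10 Lag3 UMIs, an alternative chosen after seeing the data. CD8 over regulatory T cells in shCTRL had −0.42, and −4.58 without shared barcodes, −1.59 with a minimum of 50 UMIs and 0.51 with cells weighted equally. In shPml the −1.06 became 0.33 under a mitochondrial limit of 5%. CD8 over other CD4 T cells in shCTRL had a median of 0.61, and −0.97 without shared barcodes, an alternative added after seeing the data. Pdcd1 changed sign there from 2.38 to −1.21 and Tnfrsf9 from 1.29 to −2.08.

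The share of CD8 T cells with 2 or more of the genes in shCTRL, 10.9%, was 0 without shared barcodes, 1.35% with each kept where deeper and 25.9% without thinning. In shPml the 15.7% was 19.7% with gates of 2 UMIs, 36.8% when thinned to 1000 UMIs and 43.4% without thinning. For regulatory T cells, the shCTRL share of 5.56% was 36.1% when thinned to 1000 UMIs and 72.2% without thinning, and the shPml share of 40% was 80% without thinning. Tigit, Havcr2, Entpd1 and Cd244a were too sparse in T cells for firm values.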
